A study of Homo sapiens with 15 samples.

Results

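The genes described here are 7 genes of cellular iron handling, taken by their symbols and chosen with earlier results of these data known: TFRC and SLC11A2, which bring iron in, FTH1 and FTL, which store it, NCOA4, which returns stored iron to use, SLC40A1, which exports it, and IREB2, which senses it. All 7 had a row among the 17272 genes of the expression table, and all 7 passed the filter on low values that left 17046 genes for testing. Expression was measured by RNA sequencing of polyadenylated RNA in LNCaP cells, a human prostate cancer line that responds to androgen. The cells were starved for 2 days in serum stripped with charcoal and then received 1 nM R1881, a synthetic androgen, in both groups. One group had R1881 with DMSO, the solvent (10 libraries, numbered 51 to 55 and 71 to 75 in the labels), and the other had R1881 with 2 µM enzalutamide, an antiandrogen drug (5 libraries, numbered 81 to 85), all collected after 22 h. There was no library without R1881, the cells were a single line with no allele named, and the study calls its libraries biological replicates without saying, there or in the labels, what was repeated, so the p-values measure the spread between these libraries only. Group sizes are those of the labels. The study's methods give them the other way round. The comparison asks how blocking androgen signaling altered the mRNA of these genes. Neither protein nor iron content was measured.

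Iron circulates bound to transferrin and enters most cells through the transferrin receptor, encoded by TFRC. After the complex is taken into endosomes, the transporter DMT1, encoded by SLC11A2, moves iron into the cytosol. Iron that is not used at once is held inside ferritin, a hollow shell of a heavy subunit, FTH1, which oxidizes iron, and a light subunit, FTL, which helps it to mineralize. NCOA4 is a cargo receptor that takes ferritin to the lysosome, a process called ferritinophagy, and ferroportin, encoded by SLC40A1, is the known exporter of iron from cells. When iron is scarce, the iron regulatory proteins, one of them encoded by IREB2, bind hairpins called iron-responsive elements. A hairpin in the 5′ UTR is known to hold back translation of the ferritin subunits and ferroportin, and hairpins in the 3′ UTR are known to protect TFRC mRNA from decay.

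The iron-responsive elements are shown because they are the sequence feature by which these mRNAs are known to be read by the same sensor. Each is given 5′ to 3′ on the strand of the mRNA, with the 6 bases of the loop in capitals, from the GRCh38 transcripts of GENCODE release 44. By the strict pattern searched for, TFRC held 4 of them in its 3′ UTR, and FTH1, FTL and SLC40A1 held 1 each in the 5′ UTR. Elements of another form were not counted.
TFRC 3′ UTR, chr3:196050985-196051001, minus strand: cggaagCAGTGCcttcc
TFRC 3′ UTR, chr3:196050581-196050597, minus strand: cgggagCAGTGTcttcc
TFRC 3′ UTR, chr3:196050516-196050532, minus strand: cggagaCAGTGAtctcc
TFRC 3′ UTR, chr3:196050469-196050485, minus strand: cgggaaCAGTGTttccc
FTH1 5′ UTR, chr11:61967580-61967596, minus strand: cttcaaCAGTGCttgga
FTL 5′ UTR, chr19:48965341-48965357, plus strand: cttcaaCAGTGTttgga
SLC40A1 5′ UTR, chr2:189580667-189580683, minus strand: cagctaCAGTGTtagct

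The search was for a C, a stem of 5 base pairs (G-T pairs allowed) and the loop CAGTGN, on the transcript strand only. Whether that C was unpaired was not checked. Of 20046 canonical coding transcripts, 262 (1.31%) held this pattern and 141 (0.703%) held it in a UTR. The FTH1 and FTL hairpins were identical at 16 of 17 bases and differed by C12T, counted from 1 at the 5′ end with the FTH1 base first. SLC40A1 shared 11 of 17 bases with FTL and 10 of 17 with FTH1. The TFRC sites were in 10 of 11 coding transcripts of the gene, the FTH1 site in 7 of 8, the FTL site in its only one, and the SLC40A1 site in 1 of 5, so the SLC40A1 reads do not show how much of its mRNA carried the element. No match was found in the 17 coding transcripts of SLC11A2, the 4 of IREB2 or the 7 of NCOA4. These letters define a strict form of the hairpin, and their absence says only that this pattern is not in those transcripts.

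Reads counted on genes numbered 15830745 to 25416052 in a library (median 22329140). Values are CPM as deposited, that is, reads scaled by a factor for each library. Their totals were 1053406 to 1078567 with R1881 + DMSO and 985580 to 1008992 with R1881 + enzalutamide, with no overlap and by a scaling rule not stated in the sources. Androgen-induced genes, taken as a check of the treatment, were lower with enzalutamide (KLK2, KLK3, TMPRSS2 and FKBP5), KLK3 for example at 1588 ± 209 CPM with R1881 + DMSO and 134 ± 7.66 CPM with R1881 + enzalutamide (SD, n = 10 and n = 5). All 6 luminal prostate markers were expressed, between 283 and 1588 CPM with R1881 + DMSO and between 134 and 1526 CPM with R1881 + enzalutamide. Of these KLK3, KRT8 and KRT18 fell (KRT8 from 1581 to 348.5 CPM and KRT18 from 925.5 to 223.5 CPM), and FOLH1 and HOXB13 rose, although HOXB13 was not called against libraries 71 to 75 alone or without library 83. Of the 9 markers of basal epithelial, immune and fibroblast cells, 2 had a row: KRT14 at 1.02 CPM and 0.1 CPM, and COL1A1 at 6.03 CPM and 9.96 CPM, with R1881 + DMSO and R1881 + enzalutamide in turn. Libraries 73 and 74 (R1881 + DMSO) and 83 (R1881 + enzalutamide) lay together at one end of the first principal component of the deviations from the group means, which held 58.5% of that variance. Within their groups, these libraries were the lowest or second lowest for TFRC, FTH1, SLC11A2, IREB2 and NCOA4, and the highest or second highest for FTL. Their part in the results below was measured by leaving them out. Without the 3 libraries the log2 fold changes with enzalutamide were -0.44 for TFRC, -0.30 for NCOA4, -0.15 for IREB2, 0.20 for FTH1, 0.21 for FTL, 1.06 for SLC40A1 and 0.09 for SLC11A2.

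With enzalutamide, 3 of the 7 genes fell (TFRC, NCOA4 and IREB2), 3 rose (FTH1, FTL and SLC40A1) and SLC11A2 did not pass the test. The test was limma on log2(CPM + 0.5) across all 17046 genes, with Benjamini-Hochberg adjustment and a threshold of 0.05. Over all genes tested, 62.5% were called in this comparison, 32.7% lower and 29.8% higher, so a call alone is no mark of these genes. For 4 of the 7 (TFRC, NCOA4, FTH1 and SLC40A1) the libraries of the treatments did not overlap, a pattern seen in 37.2% of all genes. SLC40A1 changed more than 2-fold, as did 1270 of all genes tested, and the median size of change over all genes was 0.24 on the log2 scale. In bulk RNA, fewer cells of a type and less RNA per cell cannot be told apart. The plot of the genes in each library shows these levels.

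**Figure D1:**
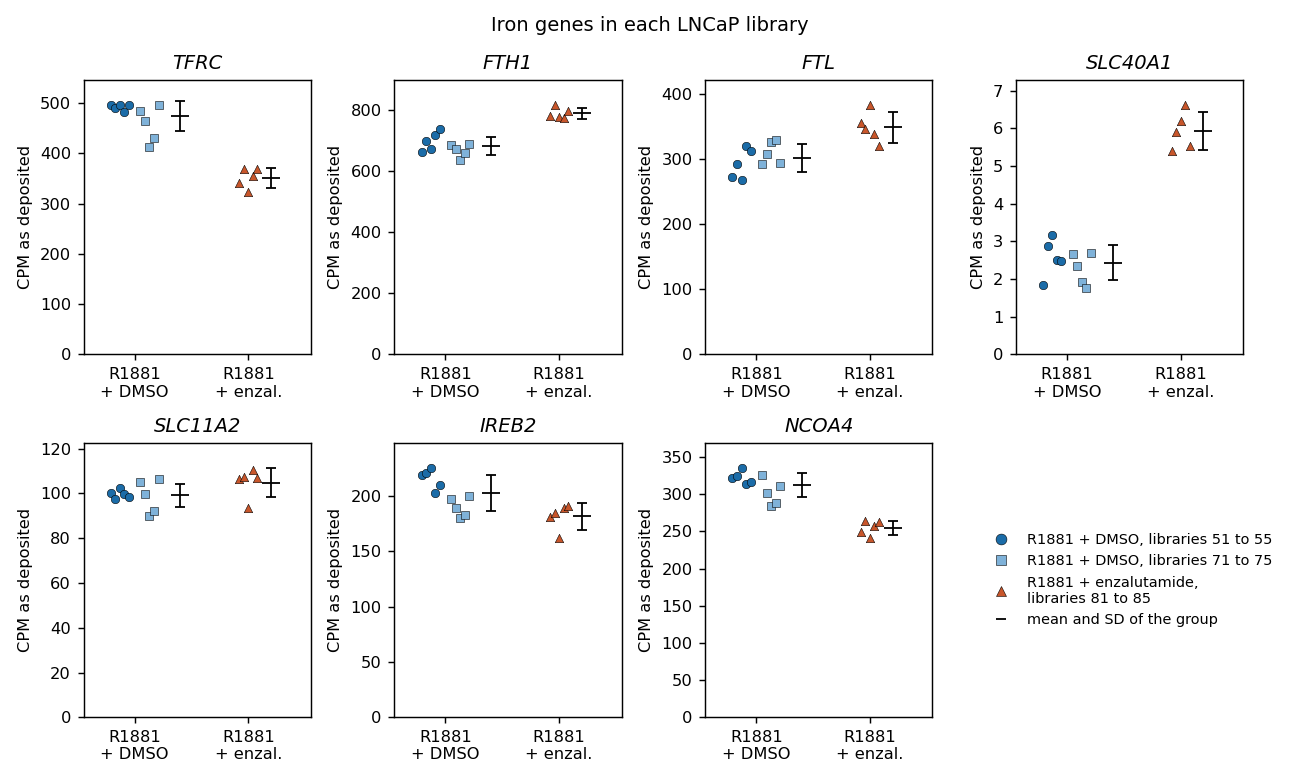
CPM as deposited (vertical axes, from 0) of the 7 iron genes in each LNCaP library, with circles for R1881 + DMSO libraries 51 to 55, squares for 71 to 75, triangles for R1881 + enzalutamide libraries 81 to 85, and bars for the mean and SD of each group (n = 10 and n = 5). The treatments separate for TFRC, FTH1, SLC40A1 and NCOA4, and overlap for FTL, SLC11A2 and IREB2.

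TFRC, the transferrin receptor gene (GRCh38 chr3:196012511-196082153, minus strand, 19 exons in its canonical transcript), fell by 27.1% of its median. Its level with R1881 + DMSO ran from 412.6 to 496 CPM with a median of 487 CPM. With R1881 + enzalutamide it was 340.6, 369.5, 322, 355 and 369 CPM in libraries 81 to 85. All 5 enzalutamide libraries lay below all 10 others, and the lowest R1881 + DMSO values were those of libraries 73 and 74, at 412.6 and 430.0 CPM. The log2 fold change of TFRC was -0.43 (SE 0.05, 95% CI -0.53 to -0.34), a level 1.35-fold lower, with a limma adjusted p of 5.57e-08. The fall of TFRC was -0.44 without libraries 73, 74 and 83 and held in every alternative tried.

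Proliferation markers moved in the same direction as TFRC. All 6 on the list fell, among them MKI67, a marker of cycling cells, from 108 ± 12.5 to 45.0 ± 3.02 CPM, TOP2A, a topoisomerase of dividing cells, from 118 ± 14.5 to 63.2 ± 5.97 CPM, and CDK1, the mitotic kinase, from 271 ± 29.7 to 146 ± 12.1 CPM. The median log2 fold change of that list was -0.86. By the same test, 32.7% of all genes were called lower and 29.8% higher. Their part in the fall of TFRC was not tested.

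SLC11A2, the gene of the endosomal iron transporter DMT1 (chr12:50979401-51028566, minus strand, 16 exons), was at 89.7 to 106 CPM with R1881 + DMSO, with a median of 99.8 CPM. With R1881 + enzalutamide its level was 106, 107, 93.5, 111 and 107 CPM in libraries 81 to 85. The groups overlapped, and library 83 stood below the other enzalutamide libraries. Its log2 fold change was 0.08 (SE 0.04, 95% CI -0.01 to 0.17), with a limma adjusted p of 0.122. The call depended on libraries and scaling: without library 83 the value was 0.12 (limma adjusted p = 0.0168), without libraries 73, 74 and 83 it was 0.09 (limma adjusted p = 0.0204), and with every library total set to 1000000 it was 0.17 (limma adjusted p = 9.93e-04).

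FTH1, the heavy ferritin subunit gene (chr11:61959718-61967634, minus strand, 4 exons), rose by 14.97% of its median. With R1881 + DMSO it ran from 638.6 to 738.6 CPM, with a median of 680.4 CPM. The enzalutamide libraries 81 to 85 held 782, 818, 778.5, 774.5 and 799 CPM of FTH1. All 5 lay above all 10 R1881 + DMSO libraries. The log2 fold change of FTH1 was 0.21 (SE 0.03, 95% CI 0.14 to 0.28), a level 1.16-fold higher (limma adjusted p = 9.79e-06).

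FTL, the light ferritin subunit gene (chr19:48965309-48966879, plus strand, 4 exons), rose by nearly the same amount. Its level was 268.6 to 330.1 CPM with R1881 + DMSO, with a median of 300.4 CPM. In libraries 81 to 85 it was 356, 346, 383, 338 and 320.3 CPM. The groups overlapped at library 85, which lay below the highest R1881 + DMSO libraries, 73 and 74. For FTL the log2 fold change was 0.21 (SE 0.05, 95% CI 0.10 to 0.31; limma adjusted p = 0.00109).

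The ferritin values need care, because both genes have many near-identical copies in the genome. Of the 50-base stretches of the canonical FTH1 transcript, 45.2% were found unchanged elsewhere in GRCh38, as were 25.8% for FTL, against none for TFRC, SLC40A1 and SLC11A2, 1.23% for IREB2 and 6.89% for NCOA4. The sources used here do not say how reads with several matches were counted. The table held 13 rows of FTH1 pseudogenes, which summed to 882 ± 40.1 CPM with R1881 + DMSO and 1003 ± 20.8 CPM with R1881 + enzalutamide, so the FTH1 row itself held only 43.0 to 44.2% and 43.6 to 44.7% of the total. Of these rows 8 rose and none fell by limma, where 29.8% of all genes tested rose and 32.7% fell. Their log2 fold changes ran from 0.06 to 0.27, with a median of 0.18. These rows share stretches with FTH1, so their reads may be its own. FTH1P2, with the highest level of them, went from 188 to 212.5 CPM. The 3 FTL pseudogene rows summed to 87.0 ± 8.83 and 93.3 ± 11.4 CPM, and none was called, with a median log2 fold change of 0.11. With the pseudogene rows added, the log2 fold change was 0.20 for FTH1 (limma adjusted p = 2.35e-05) and 0.19 for FTL (limma adjusted p = 0.00545). FTH1 also shares 1267 exon bases with BEST1 on the opposite strand. BEST1, a chloride channel gene, was at 2.25 ± 0.48 and 4.83 ± 0.29 CPM, far below FTH1, and the sources used here do not say whether strand entered the counting.

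**Figure D2:**
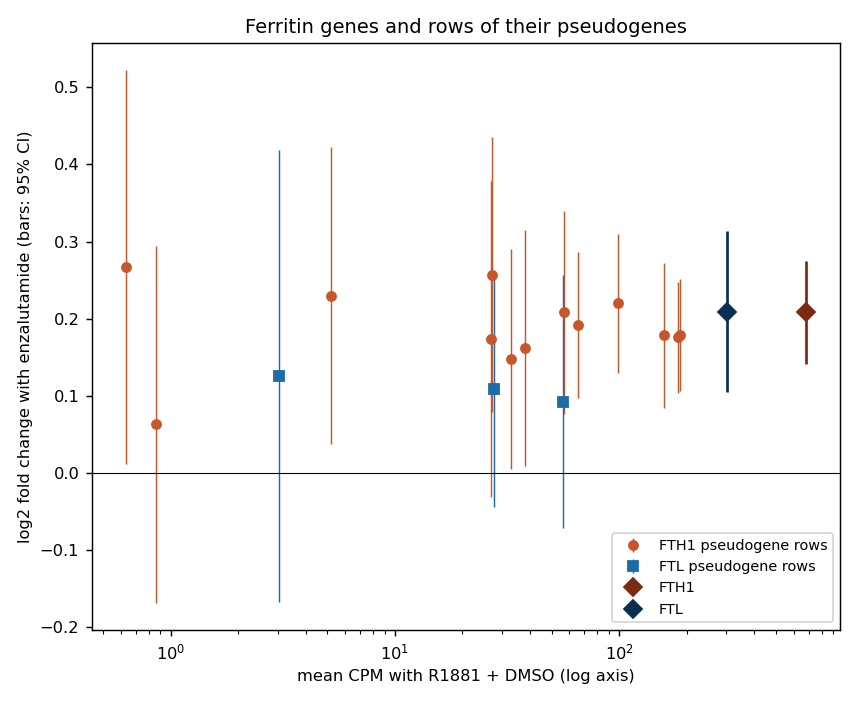
Log2 fold change with enzalutamide (vertical axis, bars 95% CI) against mean CPM with R1881 + DMSO (horizontal log axis) for FTH1 and FTL (diamonds), the 13 FTH1 pseudogene rows (circles) and the 3 FTL pseudogene rows (squares). All 16 pseudogene rows lie above 0, the FTH1 pseudogene rows between 0.06 and 0.27 and the FTL pseudogene rows between 0.09 and 0.13, below FTL at 0.21.

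No difference in the balance of the 2 ferritin subunit genes was found beyond the spread between libraries. The ratio of FTH1 to FTL in CPM ran from 1.95 to 2.51 with R1881 + DMSO (median 2.35) and from 2.03 to 2.49 with R1881 + enzalutamide (median 2.29). On the log2 scale it was 1.18 ± 0.12 (SD, n = 10) and 1.18 ± 0.11 (SD, n = 5), a difference of -0.0009 with a 95% interval of -0.14 to 0.14 (exact permutation test, two-sided, p = 0.989). The ratio was lowest in libraries 73, 74 and 83, at 0.97, 1.00 and 1.02 on the log2 scale. With the pseudogene rows added to both genes, the ratio had a median of 4.17 with R1881 + DMSO and 4.11 with R1881 + enzalutamide, so its level depends on how reads were split between copies. The sign of a difference this close to 0 changed with single libraries left out.

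The uptake receptor fell relative to the storage subunit. The ratio of TFRC to FTH1 in CPM ran from 0.646 to 0.745 with R1881 + DMSO (median 0.695) and from 0.414 to 0.462 with R1881 + enzalutamide (median 0.452), with no overlap. On the log2 scale the ratio was -0.53 ± 0.07 and -1.17 ± 0.07, a difference of -0.64 with a 95% interval of -0.72 to -0.56 (n = 10 and n = 5, two-sided exact permutation p = 3.33e-04, the smallest that 15 libraries allow, and 6.66e-04 adjusted over the 2 ratios). Both ratios are formed within a library and do not depend on how libraries were scaled. With the pseudogene rows added to FTH1 the difference was -0.63.

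**Figure D3:**
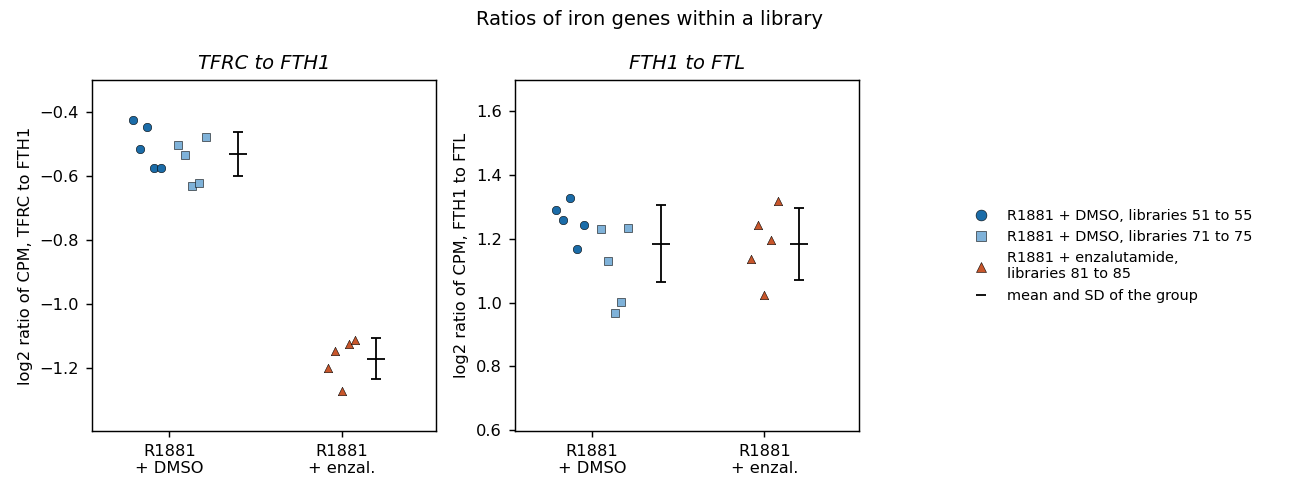
Log2 ratios of CPM within each library for TFRC to FTH1 (left) and FTH1 to FTL (right), with circles for R1881 + DMSO libraries 51 to 55, squares for 71 to 75, triangles for R1881 + enzalutamide, bars for mean and SD, and axes that do not start at 0. The TFRC to FTH1 ratio drops from around -0.53 to around -1.17 with no overlap, while the FTH1 to FTL ratio overlaps fully around 1.18.

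NCOA4, the receptor of ferritinophagy (chr10:46005088-46030623, minus strand, 10 exons), fell by 18.5% of its median. Its level with R1881 + DMSO was 284 to 336 CPM with a median of 315 CPM. In libraries 81 to 85 it was 249.9, 264, 242, 257 and 263 CPM, and every one of these lay below every R1881 + DMSO library. The log2 fold change of NCOA4 was -0.29 (SE 0.04, 95% CI -0.37 to -0.21), a level 1.22-fold lower (limma adjusted p = 1.30e-06), and -0.30 without libraries 73, 74 and 83. NCOA4 is known to bind ferritin through FTH1, whose mRNA rose.

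SLC40A1, the gene of the exporter ferroportin (chr2:189560590-189583758, minus strand, 8 exons), had the largest change of the 7 genes and the lowest level. It was at 1.76 to 3.17 CPM with R1881 + DMSO (median 2.49 CPM), from a median of 52.5 reads per library. In libraries 81 to 85 it was 5.41, 5.91, 6.19, 6.63 and 5.52 CPM, from 119, 127, 133, 169 and 123 reads. All 5 enzalutamide libraries lay above all 10 others, the lowest of them 5.41 CPM and the highest R1881 + DMSO library 3.17 CPM. The log2 fold change of SLC40A1 was 1.15 (SE 0.11, 95% CI 0.92 to 1.37), a level 2.22-fold higher (limma adjusted p = 9.85e-09). At this level the pseudocount of 0.5 shrinks the change, which was between 1.02 and 1.29 over the alternatives tried.

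IREB2, the gene of iron regulatory protein 2 (chr15:78437431-78501453, plus strand, 22 exons), fell slightly. Its level was 180.1 to 225 CPM with R1881 + DMSO (median 201 CPM). In libraries 81 to 85 it was 180.5, 185, 162, 189 and 191 CPM, which overlapped the R1881 + DMSO range. For IREB2 the log2 fold change was -0.16 (SE 0.05, 95% CI -0.27 to -0.05; limma adjusted p = 0.0142).

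The size of that fall depended on which libraries entered the comparison and on the scaling. Within R1881 + DMSO, the median of IREB2 was 219 CPM in libraries 51 to 55 and 189 CPM in libraries 71 to 75, a log2 difference of -0.18 between libraries of the same treatment (limma adjusted p = 0.0292; 3.17% of all genes were called between these libraries). The other 6 genes were not called between them, with limma adjusted p from 0.168 to 0.844. Against libraries 51 to 55 alone the log2 fold change of IREB2 was -0.25 (limma adjusted p = 1.14e-04), and against libraries 71 to 75 alone it was -0.07 (limma adjusted p = 0.255). Without library 83 it was -0.12 (limma adjusted p = 0.0623), and with library totals set to 1000000 it was -0.06 (limma adjusted p = 0.275). The labels do not say what the library numbers stand for, and the enzalutamide libraries all bear numbers 81 to 85, so treatment and number cannot be told apart.

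Levels can be compared between genes only per length. Per kilobase of the canonical transcript with R1881 + DMSO, the order was FTH1 at 569 ± 24.2, FTL at 346 ± 24.6, TFRC at 94.7 ± 5.96, NCOA4 at 90.3 ± 4.81, IREB2 at 32.0 ± 2.50, SLC11A2 at 24.0 ± 1.26 and SLC40A1 at 0.730 ± 0.14 CPM per kb (SD, n = 10). TFRC and NCOA4 overlapped in this order, between 82.3 and 99.0 and between 82.0 and 97.0 CPM per kb. With enzalutamide, NCOA4 at 73.7 ± 2.68 stood above TFRC at 70.1 ± 4.01 CPM per kb, again with overlapping ranges. The order depends on the length used: over all annotated exons merged, FTL at 346 ± 24.6 CPM per kb and FTH1 at 342 ± 14.6 CPM per kb lay within each other's spread with R1881 + DMSO, and NCOA4 at 78.4 ± 4.18 CPM per kb stood above TFRC at 27.3 ± 1.72 CPM per kb. Pseudogene rows are left out of these levels. With them the FTH1 total was 1567 ± 68.4 CPM and the FTL total 389 ± 30.0 CPM with R1881 + DMSO, so the place of FTH1 beside FTL also rests on that split.

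The genes whose pattern over the 15 libraries was most like each of the 7 were taken by the mean absolute difference in log2(CPM + 0.5), each gene set relative to its own R1881 + DMSO mean, among 12158 genes. For TFRC they were SRPK1 and ETF1 (0.026 and 0.027), for NCOA4 AP1G1 and SAR1A (0.020 and 0.026), and for IREB2 RPS6KB1 and IMPAD1 (both 0.025). For FTH1 they were EIF4BP7 and EIF4BP3 (0.026 and 0.029), which are pseudogenes of EIF4B, and for FTL ABCD4 and PRPF6 (0.038 and 0.039). For SLC11A2 they were SEH1L and PCNXL4 (0.031 and 0.032), and for SLC40A1 OPTN and AGO4 (both 0.12), a looser likeness. The likeness covers treatment difference and spread between libraries together and says nothing of function.

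Beyond the 7 genes, 8 lists of other genes of iron and heme handling held 69 genes, 60 with a row and 59 tested. Of these 22 fell, 19 rose and 18 did not pass the test, with a median log2 fold change of -0.07, that is 37.3% lower and 32.2% higher against 32.7% and 29.8% of all genes. With library totals set to 1000000, 16 fell and 26 rose, and over all genes the called genes then split into 4288 lower and 6629 higher instead of 5577 lower and 5083 higher, with the median of all genes at 0.08. As a whole, the lists therefore stood near the background in either direction. The plot of iron genes by list shows their values gene by gene, apart from a gene that is not reported here.

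**Figure D4:**
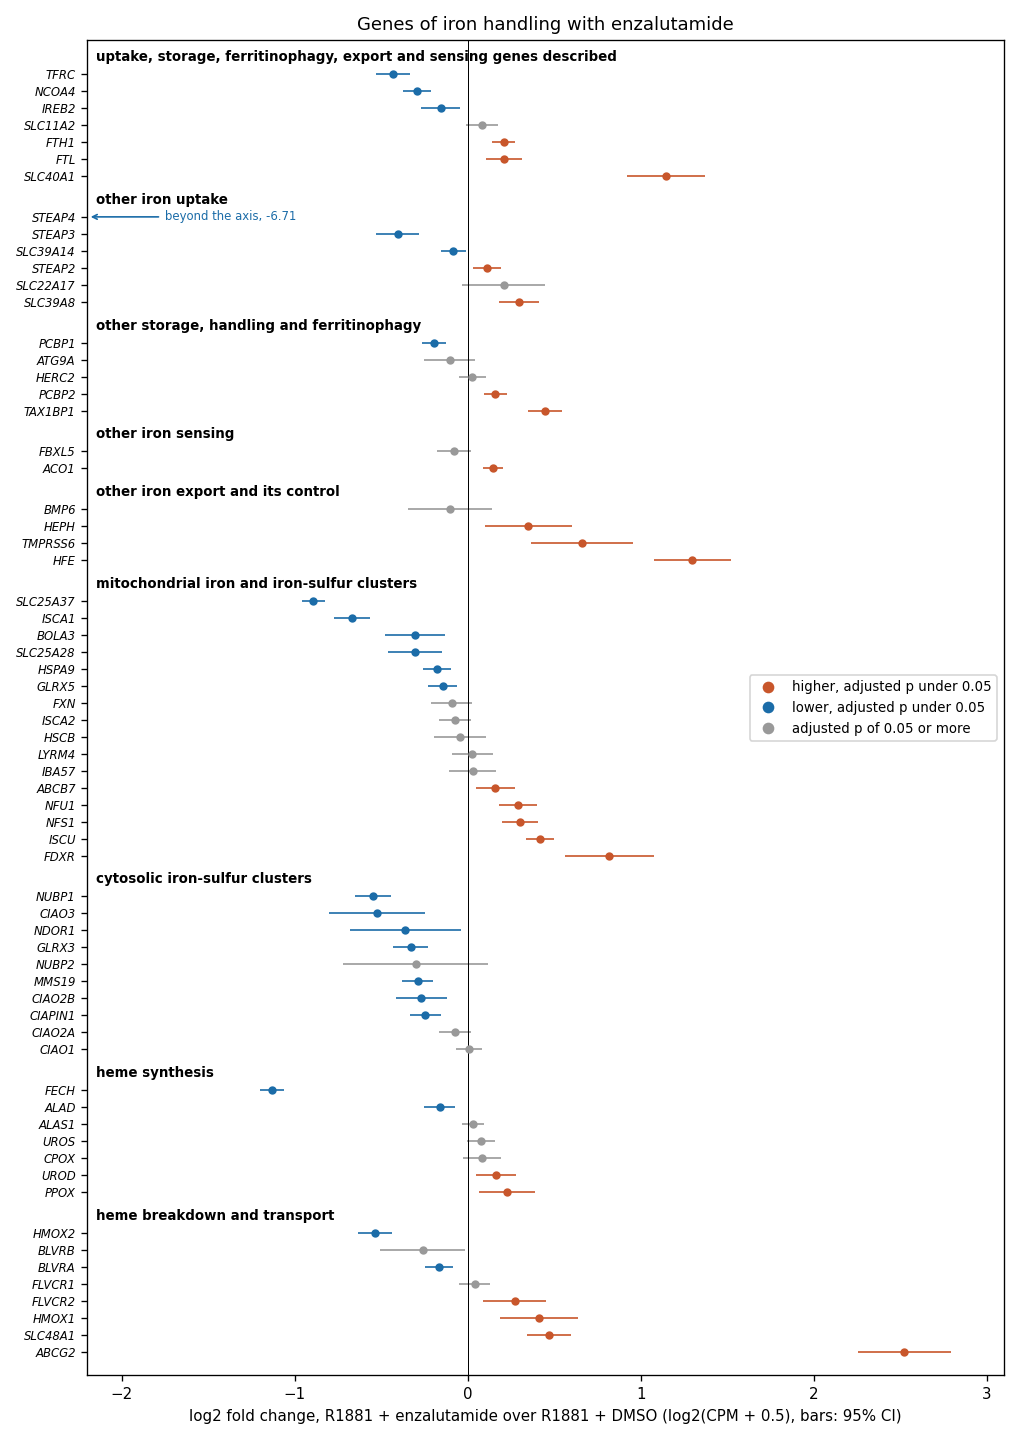
Log2 fold change of R1881 + enzalutamide over R1881 + DMSO on log2(CPM + 0.5) (horizontal axis, bars 95% CI) for the 7 genes described and other tested genes of 8 iron and heme lists, colored by the limma adjusted p. STEAP4 lies beyond the axis, and SLC40A1, HFE, FECH and ABCG2 lie farther than 1 from 0.

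Other genes of iron uptake went both ways, 3 lower and 2 higher of 6 tested, against 32.7% lower and 29.8% higher of all genes. With TMM or median-ratio scaling they had 2 lower and 2 higher, and with library totals set to 1000000 they had 2 lower and 3 higher. STEAP4, a metalloreductase, went from 66.2 ± 4.29 CPM to 0.135 ± 0.05 CPM, where its fitted fold depends on the pseudocount (limma adjusted p = 1.66e-25). STEAP3, the reductase that works beside the transferrin receptor in endosomes, fell from 15.9 ± 0.98 to 11.9 ± 1.09 CPM (log2 fold change -0.41, limma adjusted p = 5.83e-06). SLC39A8, a transporter of zinc that also carries iron, rose from 172.5 ± 15.1 to 211 ± 11.3 CPM (log2 fold change 0.30).

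Among genes that handle iron and ferritin in the cytosol, 1 fell and 2 rose of 5 tested. The shares over all genes were 32.7% lower and 29.8% higher. TAX1BP1, an autophagy receptor that acts in ferritinophagy, rose from 299 ± 19.98 to 407 ± 23.5 CPM (log2 fold change 0.45, limma adjusted p = 4.00e-08), the opposite direction to NCOA4. The iron chaperones of ferritin parted, PCBP1 falling from 156 ± 6.21 to 136 ± 3.95 CPM and PCBP2 rising from 257 ± 9.67 to 287 ± 9.45 CPM. Of the 2 other sensing genes, ACO1, which encodes iron regulatory protein 1, rose from 98.2 ± 2.18 to 109 ± 0.94 CPM (log2 fold change 0.14, limma adjusted p = 1.36e-04), and FBXL5, the ligase subunit that marks IREB2 protein for decay, had a log2 fold change of -0.08 and did not pass the test (limma adjusted p = 0.151).

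The export list had 3 genes higher, none lower and 1 not called of 4 tested, at a median log2 fold change of 0.51, all at low level. Of all genes tested, 29.8% were called higher and 32.7% lower. Without libraries 73, 74 and 83 the list had 2 higher and none lower. HFE, which takes part in iron sensing with the transferrin receptors, rose from 3.02 ± 0.56 to 8.09 ± 0.56 CPM (log2 fold change 1.30, limma adjusted p = 9.76e-10). TMPRSS6, a protease of the hepcidin pathway, rose from 1.56 ± 0.43 to 2.72 ± 0.40 CPM (log2 fold change 0.66), and HEPH, a ferroxidase that works with ferroportin, rose from 1.25 ± 0.17 to 1.77 ± 0.53 CPM (log2 fold change 0.35, limma adjusted p = 0.0153). HEPH was not called without libraries 73, 74 and 83, against libraries 71 to 75 alone, or without library 83 or 85 alone. It was also not called with replicate number as a block, and its limma adjusted p was up to 0.0808 over the alternatives. CP, the ferroxidase ceruloplasmin, was below the filter at 0.117 and 0.646 CPM.

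In the mitochondrion, where iron goes into heme and iron-sulfur clusters, 6 of 16 genes fell and 5 rose. SLC25A37, the mitochondrial iron importer mitoferrin 1, fell from 153 ± 5.59 to 82.3 ± 1.57 CPM (log2 fold change -0.89, limma adjusted p = 8.47e-16). ISCA1, an assembly factor of iron-sulfur clusters, fell from 92.9 ± 5.60 to 58.2 ± 4.39 CPM (log2 fold change -0.67), and FDXR, the reductase that passes electrons to ferredoxin, rose from 6.30 ± 1.32 to 11.5 ± 2.32 CPM (log2 fold change 0.82). The cytosolic cluster assembly genes had 7 lower, none higher and 3 not called of 10, with a median log2 fold change of -0.30. Of all genes tested, 32.7% were called lower and 29.8% higher. With library totals set to 1000000 the list had 6 lower and 1 higher, and with TMM or median-ratio scaling 6 lower and none higher. An example was NUBP1, a scaffold protein, from 27.5 ± 1.52 to 18.6 ± 1.12 CPM (log2 fold change -0.55, limma adjusted p = 4.69e-09). CIAO3, listed under its older symbol NARFL, went from 19.2 ± 4.41 to 13.2 ± 2.92 CPM (log2 fold change -0.53). NDOR1, a reductase, was at 6.43 ± 1.86 and 4.83 ± 1.01 CPM (log2 fold change -0.36, limma adjusted p = 0.0462). NDOR1 was not called under TMM or median-ratio scaling, with totals of 1000000 or against libraries 51 to 55 alone. Its call was also lost with some single libraries left out (limma adjusted p up to 0.291 over the alternatives).

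Heme synthesis had 3 lower and 2 higher of 8 genes, but 1 lower and 5 higher with library totals set to 1000000. The background was 32.7% of all genes lower and 29.8% higher. With totals of 1000000 it was 4288 lower and 6629 higher of 17018 genes. FECH, ferrochelatase, which places iron into heme in the last step, fell from 562 ± 23.4 to 256 ± 8.92 CPM (log2 fold change -1.13, limma adjusted p = 3.53e-17). PPOX, the step before FECH, rose from 14.6 ± 1.78 to 17.0 ± 0.88 CPM (log2 fold change 0.23). PPOX was not called against libraries 71 to 75 alone (limma adjusted p = 0.239). Heme breakdown and transport had 2 lower and 4 higher of 8. HMOX2, the constitutive heme oxygenase, fell from 68.7 ± 3.98 to 47.2 ± 3.15 CPM (log2 fold change -0.54). SLC48A1, a heme transporter of endosomes and lysosomes, rose from 21.1 ± 1.83 to 29.4 ± 1.77 CPM (log2 fold change 0.47). ABCG2, which exports porphyrins among other substrates, rose from 0.513 ± 0.21 to 5.27 ± 0.66 CPM (log2 fold change 2.53, limma adjusted p = 4.12e-13). At this level the pseudocount of 0.5 shrinks the change of ABCG2, which was between 2.055 and 3.333 over the alternatives tried.

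Other lists share members' biology, since FTH1, FTL and SLC40A1 are known targets of the oxidative stress factor NRF2. NRF2 targets outside iron handling had 2 lower, 1 higher and 3 not called of 6, but 1 lower and 2 higher with library totals set to 1000000 and 2 of each with TMM scaling. Among them were GCLM, a subunit of the enzyme that begins glutathione synthesis, falling from 61.8 ± 3.20 to 41.4 ± 2.45 CPM (log2 fold change -0.57), NQO1, a quinone reductase, rising from 204 ± 7.64 to 250.2 ± 9.19 CPM (log2 fold change 0.29), and TXNRD1, thioredoxin reductase, falling from 418 ± 23.2 to 388 ± 20.6 CPM (log2 fold change -0.11, limma adjusted p = 0.0315, and up to 0.774 over the alternatives). Ferroptosis regulators, which govern an iron-dependent form of cell death, had 2 lower and 3 higher of 8. Both lists stand beside 32.7% of all genes called lower and 29.8% called higher. DHODH, a mitochondrial enzyme of pyrimidine synthesis, fell from 27.0 ± 1.25 to 16.1 ± 1.15 CPM (log2 fold change -0.73), ACSL4, which activates polyunsaturated fatty acids, rose from 8.45 ± 0.79 to 13.1 ± 1.084 CPM (log2 fold change 0.60), and AIFM2, a ferroptosis suppressor, rose from 2.60 ± 0.64 to 3.50 ± 0.23 CPM (log2 fold change 0.40), although not against libraries 71 to 75 alone (limma adjusted p = 0.0874).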

How the data were processed

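Polyadenylated RNA of LNCaP cells had been sequenced from stranded libraries with single reads of 50 cycles. Per the labels, the authors used bcl2fastq 2.17, STAR and featureCounts of Subread on GRCh38 (hg38). Not given in the sources used here are the gene annotation, the strand setting, the treatment of reads with several matches and the rule for keeping genes. The values deposited by the authors are a normalized signal for each gene, called CPM in their methods. Libraries summed to 985580 to 1078567, not to 1000000, and 100% of values were whole multiples of 1 read (tolerance 0.01 reads), which gave back the read counts. No column lacked a sample. Groups were taken from the sample titles, whereas the study's methods give the group sizes the other way round.

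The 17046 genes whose mean CPM reached 0.5 were tested with limma 3.58.1 in R 4.3.3 on log2(CPM + 0.5), with a mean-variance trend, no covariate besides treatment, Benjamini-Hochberg adjustment and a threshold of 0.05. The design had assumed CPM and was kept. Alternatives were pseudocounts of 0.1 and 1, no filter, TMM and median-ratio scaling, totals of 1000000, edgeR 4.0.16 and DESeq2 1.42.0 on the recovered reads, a replicate block, each R1881 + DMSO series alone and each library left out. Removal of libraries 73, 74 and 83, and ferritin pseudogene rows added to FTH1 and FTL in the gene-wise fit and in the TFRC to FTH1 ratio, were chosen after seeing the data. Ratios within a library were compared with two-sided exact permutation tests. Positions and transcripts were those of GENCODE release 44 on GRCh38, whose symbols matched 13955 of 17272 genes (80.8%). All 55 pairs of libraries within a treatment differed beyond sampling noise (lowest chi-square per degree of freedom 1.62), and each library was counted as its own sample. Intervals rest on the spread between libraries. SLC40A1 is the gene most limited by counting error.

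The 7 genes and the lists, written by hand from general knowledge, were chosen with earlier results of these data known. Named genes are the 7, up to 3 genes of each list with the largest log2 fold change among those called with a mean CPM of at least 1, all androgen-induced genes, the 2 genes most like each of the 7 (mean CPM of at least 5) and the ferritin pseudogenes. A few genes and markers are not reported here. BEST1, FBXL5, CP and the cell type markers were named outside this rule after their values were seen. No gene set test was run.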

Additional observations from a re-analysis of the deposited data

Results flagged for a closer look

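One value stood apart from its group. The level of SLC11A2 in R1881 + enzalutamide library 83 was 93.5 CPM, while the nearest of the other 4 enzalutamide libraries was at 106 CPM. The gap was 0.74 of the range of the group, above Dixon's 95% critical value of 0.71 for 5 libraries. Of 18 groups of values examined 1 was set apart in this way, where chance gives about 0.9.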

How the results depend on the processing

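TFRC, NCOA4, FTH1, FTL, SLC40A1 and the TFRC to FTH1 ratio kept their direction and their side of the threshold in every alternative run for them, with log2 values from -0.49 to -0.34, -0.34 to -0.20, 0.18 to 0.30, 0.17 to 0.30, 1.02 to 1.29 and -0.66 to -0.62, and with single libraries left out from -0.45 to -0.40, -0.31 to -0.27, 0.20 to 0.22, 0.17 to 0.24, 1.11 to 1.19 and -0.66 to -0.62. Between 10043 and 11064 genes were called. SLC11A2 passed the threshold with library totals of 1000000 (0.17) and without libraries 73, 74 and 83 (0.0897), and ranged from 0.0602 to 0.12 with single libraries left out. IREB2 lost it with totals of 1000000 (-0.0637) and against libraries 71 to 75 alone (-0.0664). With single libraries left out IREB2 ranged from -0.18 to -0.12. Leaving out library 83 alone changed both calls. SLC11A2 was then at 0.12 (limma adjusted p = 0.0168) and IREB2 at -0.12 (limma adjusted p = 0.0623). The FTH1 to FTL difference changed sign against libraries 71 to 75 alone (0.0715) and with pseudogene rows added (0.0103), and ranged from -0.0347 to 0.0394 with single libraries left out. The causes were not tested. The replicate numbers did not pair the libraries, as same-numbered libraries correlated at -0.068 to 0.074 in their deviations and 0 of 5 enzalutamide libraries correlated best with their own number. With the replicate block 10043 genes were called, and SLC11A2 was at 0.0619 and IREB2 at -0.129, with no call among the 7 genes altered. Depth limits SLC40A1 most, with a median of 52.5 reads with R1881 + DMSO.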
